A study of Homo sapiens with 4 samples.

Results

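The TRIM genes were examined for CHAF1A binding in RBE cells, a human line of intrahepatic cholangiocarcinoma, which is a cancer of the bile ducts within the liver. Members were all protein-coding genes of the RefSeq annotation of GRCh38.p14 whose symbol is TRIM followed by a number, with 1 gene of the family left out by the rule. This gave 76 of 20033 protein-coding genes on chromosomes 1 to 22, X and Y. Of these, 9 lay at 6p21-p22 (here chromosome 6, 15 to 46 Mb), 9 at 11p15 (chromosome 11, below 22 Mb) and 58 elsewhere. The rule used symbols and positions and no measured value, but it was set with earlier results of these data known. CHAF1A is the large subunit of chromatin assembly factor 1, the histone chaperone that deposits new histones H3 and H4 behind the replication fork. Binding was mapped by CUT&Tag, in which an antibody tethers the transposase Tn5 so that DNA near the bound protein is cut and tagged for sequencing. One group received a control siRNA and the other a siRNA against CHAF1A, both with Lipofectamine 3000, and cells of both groups were collected 48 hours after transfection. Each group has 2 samples but 1 peak list, and the labels do not say how the list was made from the samples. The lists, named NC and si, are called the control list and the siRNA list below. That NC is the control siRNA group and si the CHAF1A siRNA group was inferred from these names, and every direction between the lists rests on it. With 1 list per group there is no replicate check, and no difference between the lists was tested.

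TRIM proteins carry a tripartite motif of a RING finger, which transfers ubiquitin, 1 or more B-boxes and a coiled coil through which the proteins pair, followed by a C-terminal domain that chooses the substrate. Most are E3 ubiquitin ligases. Many take part in innate immunity, among them TRIM5, which recognises retroviral capsids, TRIM21, an intracellular antibody receptor, and TRIM25, which acts with the RNA sensor RIG-I. Others have roles in muscle, the cytoskeleton and transcription, and several large groups of near-identical copies arose late in primate evolution.

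The control list held 76313 peaks and the siRNA list 97653 on the chromosomes used. The number of reads was not given, but the read pileup and its background could be solved for most peaks from the deposited fold enrichment and p. The most frequent background was 6.34 reads in the control list and 8.49 in the siRNA list, 1.34 times as many. Fold enrichment is the ratio of the pileup to the background at a peak's summit, 1 added to each, and q is the peak's p adjusted for the number of tests. Peaks do not show how far the siRNA lowered CHAF1A, and its RNA and protein were not analysed here. Nothing in the labels says whether the samples of a group came from separate cultures. A change in binding per cell and a change in the share of cells with binding cannot be told apart in such data.

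Promoter sequences of members are shown here because the results below turn on their CpG content, on the binding motifs they hold and on their near-identical copies. A listed promoter spans 250 bases before to 50 after a start in the RefSeq promoter table of GRCh38.p14, and 62 of the 76 members had at least 1 there, with 82 promoters in all. All are written 5′ to 3′ on the gene's strand. The promoter of TRIM37 (chr17:59106831-59107130, minus strand) lay under the member peak with the highest fold enrichment in both lists, and its capitals mark the core of the NRF1 motif, GCGCA followed directly by TGCGC.
TRIM37: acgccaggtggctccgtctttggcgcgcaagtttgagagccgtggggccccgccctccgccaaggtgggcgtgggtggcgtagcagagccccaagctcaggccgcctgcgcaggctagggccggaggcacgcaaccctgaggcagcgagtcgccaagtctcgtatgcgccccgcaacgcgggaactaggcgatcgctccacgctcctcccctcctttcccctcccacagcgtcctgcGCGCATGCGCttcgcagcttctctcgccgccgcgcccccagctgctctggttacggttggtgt
Next come 4 promoters with the core of the interferon-stimulated response element in capitals. The core is GAAA, any 2 bases and GAAA, on either strand. They belong to TRIM26 at 6p21-p22 (chr6:30213357-30213656, minus strand) and to TRIM21 (chr11:4393653-4393952, minus strand), TRIM5 (chr11:5685025-5685324, minus strand) and TRIM34 (chr11:5624751-5625050, plus strand) at 11p15. TRIM26 and TRIM21 each held 2 cores that overlap one another, and those of TRIM21 lay past the start.
TRIM26: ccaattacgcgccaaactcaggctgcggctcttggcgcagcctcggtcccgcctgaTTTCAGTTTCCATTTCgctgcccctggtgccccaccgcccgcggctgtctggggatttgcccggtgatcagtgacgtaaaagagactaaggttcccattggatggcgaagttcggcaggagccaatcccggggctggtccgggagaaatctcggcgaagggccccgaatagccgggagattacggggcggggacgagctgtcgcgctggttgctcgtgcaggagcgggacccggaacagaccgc
TRIM21: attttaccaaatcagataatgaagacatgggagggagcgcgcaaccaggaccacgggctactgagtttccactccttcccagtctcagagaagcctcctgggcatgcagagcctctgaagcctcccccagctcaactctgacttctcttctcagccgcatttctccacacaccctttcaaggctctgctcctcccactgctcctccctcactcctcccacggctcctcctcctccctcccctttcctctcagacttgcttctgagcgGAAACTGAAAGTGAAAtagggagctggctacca
TRIM5: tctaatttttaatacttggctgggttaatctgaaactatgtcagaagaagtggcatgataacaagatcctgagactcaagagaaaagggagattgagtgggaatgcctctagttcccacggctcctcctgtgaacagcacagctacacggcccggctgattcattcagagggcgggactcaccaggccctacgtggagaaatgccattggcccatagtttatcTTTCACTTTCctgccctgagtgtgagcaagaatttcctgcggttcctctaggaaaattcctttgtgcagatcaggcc
TRIM34: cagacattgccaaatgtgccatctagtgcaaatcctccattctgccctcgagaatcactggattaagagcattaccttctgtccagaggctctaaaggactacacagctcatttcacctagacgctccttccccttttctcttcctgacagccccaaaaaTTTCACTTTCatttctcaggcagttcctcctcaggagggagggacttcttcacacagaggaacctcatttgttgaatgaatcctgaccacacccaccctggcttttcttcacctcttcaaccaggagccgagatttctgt
In the last set the capitals mark CpG dinucleotides. TRIM25 (chr17:56914000-56914299, minus strand) had 37 of them and, by the strongest control peak, the largest shift of fold enrichment towards the siRNA list. TRIM64 (chr11:89965787-89966086, plus strand) and its copy TRIM64B (chr11:89878438-89878737, minus strand) had 2 each and no peak within 1 kb of a boundary.
TRIM25: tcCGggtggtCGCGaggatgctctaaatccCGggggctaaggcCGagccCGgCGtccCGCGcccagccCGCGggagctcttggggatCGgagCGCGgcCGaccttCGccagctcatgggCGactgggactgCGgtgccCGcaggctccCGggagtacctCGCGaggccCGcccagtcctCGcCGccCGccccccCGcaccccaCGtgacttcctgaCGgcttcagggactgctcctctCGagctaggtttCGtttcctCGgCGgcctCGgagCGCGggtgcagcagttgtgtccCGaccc
TRIM64: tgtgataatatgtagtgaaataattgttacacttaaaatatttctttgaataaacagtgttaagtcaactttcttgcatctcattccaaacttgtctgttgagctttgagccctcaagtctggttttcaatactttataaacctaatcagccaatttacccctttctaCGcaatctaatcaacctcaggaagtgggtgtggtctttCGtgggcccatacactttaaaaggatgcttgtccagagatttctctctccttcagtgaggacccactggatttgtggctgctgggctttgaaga
TRIM64B: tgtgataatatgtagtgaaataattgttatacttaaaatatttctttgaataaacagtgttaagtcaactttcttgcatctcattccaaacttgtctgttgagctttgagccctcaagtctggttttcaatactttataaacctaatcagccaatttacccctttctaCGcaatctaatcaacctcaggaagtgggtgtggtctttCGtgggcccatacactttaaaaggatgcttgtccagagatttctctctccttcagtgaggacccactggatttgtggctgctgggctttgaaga
These TRIM64B and TRIM64 promoters were identical at 299 of 300 bases and differed by T30C, counted from 1 at the promoter's 5′ end, with the base of TRIM64B first.

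A member was counted as bound where a peak overlapped a window of 1 kb on each side of either gene boundary by at least 1 bp. In the control list, 47 of 76 TRIM genes were bound (61.8%, 95% exact binomial interval 50 to 72.8%), against 61.1% of all protein-coding genes. In the siRNA list 46 were bound (60.5%, 48.6 to 71.6%), against 64.3%. The intervals cover counting error only, and a few members share a peak with a neighbour. The shares of all protein-coding genes lay inside both intervals. Both lists bound 43 members, against 56.2% of all genes. The control list alone bound 4 members (4.9% of all genes), the siRNA list alone 3 (8.07% of all genes), and neither list 26 (30.8% of all genes).

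The recently copied members had the lower shares. Of 21 recent duplicates, near-identical or testis-type copies such as the TRIM49, TRIM51 and TRIM64 genes of chromosome 11, 4 were bound in the control list (19.0%, 5.4 to 41.9%) and 3 in the siRNA list (14.3%, 3.0 to 36.3%). Of the other 55 members, 43 were bound in each list (78.2%, 65.0 to 88.2%). Over all protein-coding genes the shares were 61.1% and 64.3%. The duplicate list, like the other gene lists here, was drawn up with earlier results of these data known. The innate immunity list has 22 members with a known antiviral or signalling role and no recent duplicates. Of these, 19 were bound in the control list (86.4%, 65.1 to 97.1%) and 18 in the siRNA list (81.8%, 59.7 to 94.8%). The share of all genes lay below the first interval and inside the second. Both intervals hold the 78.2% of the 55 members that are not recent duplicates. The 3 members of the innate immunity list bound in neither list were TRIM22, TRIM69 and TRIM8.

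**Figure D1:**
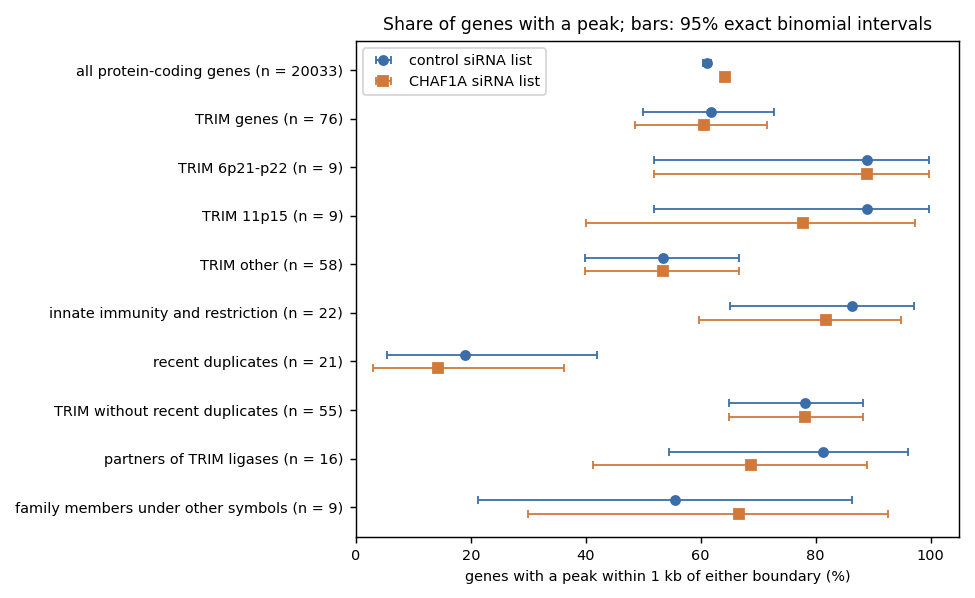
Share of genes with a peak within 1 kb of either boundary, in percent, for the control list (circles) and the siRNA list (squares). Bars are 95% exact binomial intervals, and n is the number of genes. The 21 recent duplicates sit at 19.0 and 14.3%, below the 61.1 and 64.3% of all protein-coding genes, and the 55 other TRIM genes sit at 78.2% in both lists.

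At 6p21-p22, the region of the major histocompatibility complex, 8 of 9 TRIM genes were bound in both lists (88.9%, 51.8 to 99.7%). Of the 455 other protein-coding genes there, 64.2% were bound in the control list and 69.5% in the siRNA list. Over all protein-coding genes the shares were 61.1% and 64.3%, inside the same interval. TRIM26, a ligase that acts in interferon signalling, had the strongest peak of the group, whose fold enrichment was 9.91 (control) and 8.66 (siRNA). The pileup at its summit was 201 reads in the control list and 305 in the siRNA list, while the background was 19.4 and 34.3 reads. The pileup was thus higher in the siRNA list and the fold enrichment lower. TRIM39, a ligase tied to the cell cycle, had values of 5.80 and 4.42 at its start. TRIM10 and TRIM15, head-to-head genes of which TRIM10 acts in red cell maturation, shared 1 peak with values of 5.37 and 4.48. TRIM27, a ligase found fused to RET in tumours, had 4.65 and 4.22. TRIM38, a regulator of Toll-like receptor signalling, had 4.40 and 2.71. TRIM40, described in the gut epithelium, had 3.81 and 3.27. In all 8 genes the fold enrichment of the strongest control peak was lower at the overlapping siRNA peak, with a median ratio of 0.85. It was lower in 85.8% of other genes of the region, at a median of 0.84, and in 80.8% of all genes, at a median of 0.86. TRIM10 and TRIM15 are both counted through their shared peak.

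TRIM31, a ligase that ubiquitinates MAVS, differed from its neighbours in where its peaks lay. Its strongest peak was at the 3′ end, with 4.33 in the control list and 4.09 in the siRNA list. A peak at its own start appeared in the siRNA list only, with 3.11 and a pileup of 31 reads. The read-through gene TRIM39-RPP21 was the 1 gene of the group with no peak at its boundaries. Its nearest control peak lay 1410 bp inside a boundary and its nearest siRNA peak 1304 bp.

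At 11p15, 8 of 9 TRIM genes were bound in the control list (88.9%, 51.8 to 99.7%) and 7 in the siRNA list (77.8%, 40.0 to 97.2%). Of the 306 other protein-coding genes there, 47.7% and 51.3% were bound. Over all protein-coding genes the shares were 61.1% and 64.3%, each inside the interval of its list. At the start of TRIM5 the fold enrichment was 10.1 (control) and 6.70 (siRNA), with pileups of 114 and 101 reads. TRIM68, a ligase of the androgen receptor, had 10.0 and 5.25, with pileups of 102 and 55 reads over backgrounds of 9.3 and 9.7. TRIM21 had 8.08 and 4.85, with 62 and 45 reads. In these 3 genes the pileup itself was lower in the siRNA list, although the background of that list was the higher one. TRIM6, which builds free ubiquitin chains in interferon signalling, shared its peak with the read-through TRIM6-TRIM34, with values of 6.39 and 4.48. TRIM3, an NHL-type ligase of brain, had 4.93 and 3.64 at its start, and in the siRNA list further peaks of 3.12 and 2.69 at its 3′ end.

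TRIM66, a TIF1-type reader of histone tails, had 10.0 and 9.43. Its peak spanned chr11:8682034-8683478 in both lists and also lay within 1 kb of RPL27A, a ribosomal protein gene, and of SNORA3A, so the signal cannot be given to TRIM66 alone. TRIM34, a relative of TRIM5 that restricts some retroviruses, was counted in the control list only, with 7.26. A siRNA peak of 4.33 overlapped that control peak, but its nearer edge lay 1139 bp from the boundary, past the 1 kb limit. At the TRIM34 promoter printed above, a further peak of 3.98 in the control list and 3.41 in the siRNA list covered the start. TRIM22, an interferon-induced restriction factor next to TRIM5, had no peak at its boundaries or inside in either list. The nearest control peak was that of TRIM5, 4408 bp away, and the nearest siRNA peak lay 2659 bp away with 3.69.

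**Figure D2:**
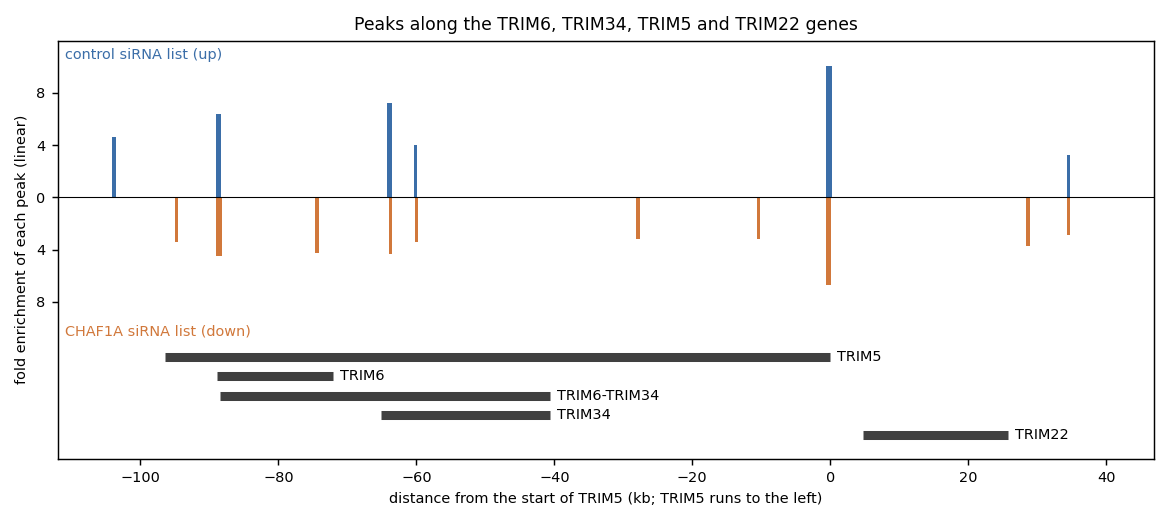
Peaks along the 11p15 stretch that holds TRIM6, TRIM34, TRIM5 and TRIM22, by distance from the start of TRIM5 in kb. Bar height is fold enrichment (linear), upwards for the control list and downwards for the siRNA list, bar width is not to scale for narrow peaks, and dark bars are the TRIM genes. The peak at the start of TRIM5 is the tallest in both lists (10.1 and 6.70), and no peak falls on TRIM22.

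For 8 of the 9 genes of 11p15, the strongest control peak was overlapped by a siRNA peak. Their fold enrichment had a median of 7.67 in the control list and 4.66 in the siRNA list. The median ratio of siRNA to control was 0.68, with a range of 0.52 to 0.94, and all 8 were below 1. For 125 other genes of 11p15 the median ratio was 0.86, and for 10792 protein-coding genes it was also 0.86, with 10% of genes below 0.68. TRIM6 and its read-through share 1 peak, so the 8 genes stand for fewer sites. Over all 42 TRIM genes that could be compared the median ratio was 0.83, from a median of 6.02 to one of 4.48. The ratio was below 1 in 37 of them (88.1%), against 80.8% of all genes.

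Outside the clusters, 31 of 58 members were bound in each list (53.4%, 39.9 to 66.7%), 28 of them in both. Of all genes, 61.1% were bound in the control list and 64.3% in the siRNA list. TRIM37, the MATH-type ligase lost in Mulibrey nanism and a guard of centrosome number, stood above all other members. Its peak was enriched 18.4-fold (control) and 17.7-fold (siRNA), with a −log10 q of 770 and 981. The summit lay at position 59107011 of chromosome 17 in both lists, upstream of the listed start. TRIM45, which carries a filamin repeat, had no peak within the windows, but peaks of 7.15 and 6.22 began 1593 and 1634 bp inside a boundary.

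The TIF1-type members join a PHD finger to a bromodomain and act as transcription cofactors. All 3 considered were bound in both lists, against 56.2% of all genes. With so few genes the 95% interval of the share in each list started at 29.2%, below the share of all genes. The median fold enrichment was 10.0 (control) and 9.20 (siRNA), against 5.79 and 4.85 over the 10792 protein-coding genes compared. TRIM24, a coregulator of nuclear receptors, had 10.2 and 9.20, with pileups of 294 and 342 reads. TRIM33, a regulator of TGF-beta signalling, had 8.21 and 7.88, and 2 control peaks at its start corresponded to 1 wide siRNA peak of 2016 bp. TRIM66 is described above. The ratios of these 3 genes, 0.90 to 0.96, were above the member median of 0.83.

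Among NHL-type ligases, TRIM32, mutated in a limb-girdle muscular dystrophy, had 4.61 and 4.45 at its start. TRIM71, a stem cell gene, had no peak at its boundaries in either list, and the nearest lay 5189 and 5094 bp away. TRIM2, a ligase of neurofilament light chain, was counted in the siRNA list only, with 5.13. A control peak of 6.05 overlapped it but lay 1043 bp from the boundary. A start inside TRIM2, at position 153204443 of chromosome 4, carried peaks of 6.46 and 3.51. Away from its ends, TRIM2 held 13 control and 12 siRNA peaks.

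The COS box members bind microtubules, and 5 of 7 were bound in both lists (71.4%, 29.0 to 96.3%), against 56.2% of all genes. TRIM9, a ligase of neurons, had 8.56 and 5.93, with pileups of 104 and 78 reads. Its relative TRIM67 had 3.99 and 4.32. TRIM46, which organises the axon's first segment, had 3.94 and 3.08 under a peak also near KRTCAP2. None of its listed promoters lay under a peak. TRIM54 had 3.75 and 2.74 before its start, 3.45 and 3.50 just past it, and 2.40 and 2.89 at its 3′ end, so its sites differed in direction. The first of these sites also lay within 1 kb of DNAJC5G and the last within 1 kb of UCN. TRIM55 had 4.29 and 4.11 beside 3 transfer RNA genes. TRIM54 and TRIM55 are muscle ring finger proteins of the sarcomere, and the third of that family, TRIM63, had no peak. TRIM36 had none at its outer boundaries, but its inner listed start carried peaks of 8.07 and 7.22, with a −log10 q of 87.7 and 96.4. TRIM72, a membrane repair protein of muscle, had 2.66 and 2.42 at its start and a control peak of 3.08 at its 3′ end.

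TRIM23, whose C-terminal domain is an ARF-type GTPase, had 8.40 and 7.63 under a peak that also lay near TRAPPC13 and SHLD3. Both transmembrane members were bound in both lists, against 56.2% of all genes. The 95% interval of their share in each list started at 15.8%, below the share of all genes. TRIM13, a ligase of the endoplasmic reticulum, had 7.07 and 5.87, and TRIM59, which is often raised in tumours, had 7.82 and 6.20. Outside these subfamilies, TRIM35, which regulates IRF7 but was not on the innate immunity list, had 8.70 and 6.98 under a peak also near PTK2B. The values were 6.08 and 4.56 at TRIM4 and 5.96 and 4.70 at TRIM44, a RING-less member.

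Among innate immunity genes outside the clusters, TRIM56, which acts in STING signalling, had 7.44 in the control list and 5.32 in the siRNA list. TRIM11, an inhibitor of inflammasome signalling, shared 1 peak of 7.47 and 4.94 with TRIM17, a ligase of neuronal apoptosis that is not on the innate immunity list, and the peak lay at the 3′ end of TRIM17. TRIM41, which acts on viral nucleoproteins, had 4.20 at the strongest control peak, upstream of its start, and 2.51 at the overlapping siRNA peak. There the pileup was 303 reads in the control list and 121 in the siRNA list, over backgrounds of 71.3 and 47.6 reads, and the transfer RNA genes TRK-CTT2-3 and TRV-CAC1-5 lay within 1 kb. At the upstream site both pileup and background were thus higher in the control list. A second TRIM41 site, at the start itself, had 2.93 and 3.02, and was the strongest TRIM41 peak of the siRNA list, so the sites differed in direction. TRIM14, an adaptor of MAVS signalling, had 3.59 and 3.12 near its start. Its strongest control peak, of 3.77, lay at its 3′ end and was overlapped by no siRNA peak.

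TRIM25 went the other way at its start. Its fold enrichment there was 3.91 in the control list and 5.22 in the siRNA list, a ratio of 1.33. Of the genes compared, 99.0% had a lower ratio. The pileup at its start was 107 reads in the control list and 162 in the siRNA list, over backgrounds of 26.6 and 30.2. A weaker control peak of 3.22 lay at the 3′ end of TRIM25 and was overlapped by no siRNA peak. The sites of TRIM25 thus differed in direction. TRIM65, a ligase of MDA5, had 2.48 and 2.79, a ratio of 1.12. TRIM67 had a ratio of 1.08 and TRIM62, a ligase in CARD9 signalling, one of 1.02 from 3.94 to 4.00. TRIM16, a ligase of damaged lysosomes, had a ratio of 1.01 from 2.90 to 2.94. The strongest TRIM16 peak of the siRNA list was another, of 3.88 at the 3′ end, overlapped by no control peak. By the strongest control peak, TRIM25, TRIM65, TRIM67, TRIM62 and TRIM16 were all the members with a ratio above 1. Those with the lowest ratios among genes bound in both lists were TRIM68 at 0.52, TRIM41 (at the upstream site) and TRIM21 at 0.60, TRIM38 at 0.62, and TRIM5 and the peak shared by TRIM11 and TRIM17, each at 0.66. Of all genes compared, 0.7% had a ratio below that of TRIM68.

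**Figure D3:**
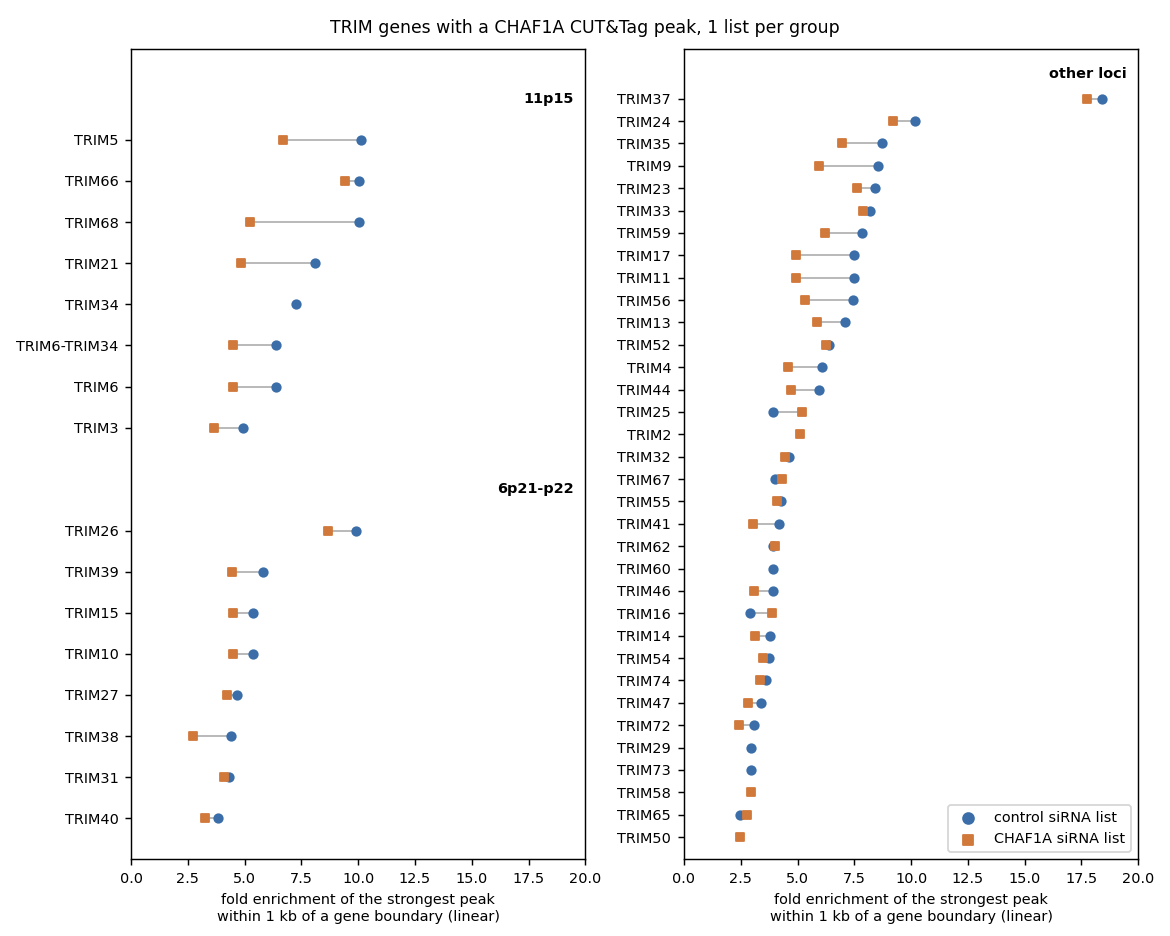
Fold enrichment (linear) of the strongest peak by −log10 q of each TRIM gene with a peak, in the control list (circles) and the siRNA list (squares), for both clusters (left) and other loci (right). A line joins both values of a gene, whose strongest peaks need not be the same site, and a lone symbol is a gene bound in 1 list. TRIM37 stands at 18.4 and 17.7, all 11p15 genes bound in both lists lie lower in the siRNA list, and TRIM25 lies higher in it.

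Members bound in 1 list had fold enrichments under 4, except TRIM34 and TRIM2. In the control list alone, TRIM29, a RING-less member of epithelia, had 2.97, TRIM60 had 3.94 and TRIM73 had 2.95, with a −log10 q of 3.97, 8.07 and 6.99. In the siRNA list alone, TRIM50, described in stomach, had 2.49 and TRIM58, an erythroid ligase, had 2.94, with a −log10 q of 5.3 and 5.11. The nearest siRNA peak lay 1489 bp from a boundary of TRIM60 (2.53) and 1286 bp from one of TRIM73 (2.63), and with 3 kb windows neither gene was bound in the control list alone. When TRIM34 and TRIM2, whose peaks were overlapped in the other list, were set aside, 3 members had a peak in the control list alone and 2 in the siRNA list alone. By the same count 4.72% of all genes had a control peak alone and 7.60% a siRNA peak alone.

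The 60 control peaks at boundaries of TRIM genes had a median fold enrichment of 4.25, and the 59 siRNA peaks one of 3.88. Over all protein-coding genes the medians were 4.62 and 3.71. A siRNA peak overlapped 48 of the 60 control peaks (80.0%), against 83.6% at all genes. A control peak overlapped 47 of the 59 siRNA peaks (79.7%), against 74.3%.

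The 26 members bound in neither list fell into 2 sets. Among them were 16 recent duplicates, TRIM43, TRIM43B, TRIM48, TRIM49, TRIM49B, TRIM49C, TRIM49D1, TRIM49D2, TRIM51, TRIM51G, TRIM61, TRIM64, TRIM64B, TRIM64C, TRIM75 and TRIM77. The nearest control peak to a boundary of these lay at a median of 37434 bp, with a range of 1002 to 483798 bp, and the nearest siRNA peak at 16400 bp, with a range of 2573 to 85562 bp. The other 10 were TRIM7, TRIM8, TRIM22, TRIM36, TRIM39-RPP21, TRIM42, TRIM45, TRIM63, TRIM69 and TRIM71. Their nearest peaks lay at a median of 3002 bp in the control list and 2234 bp in the siRNA list, and 5 had one within 2 kb in each list. Around the 1 kb limit, the peaks just inside it were those of TRIM47 in the control list at 982 bp and TRIM68 in the siRNA list at 965 bp, and the peaks just outside were those of TRIM51 at 1002 bp and TRIM2 at 1043 bp, both in the control list.

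Some recent duplicates have nearly the same promoter. Besides TRIM64B and TRIM64, the listed promoters of TRIM49 and TRIM49C differed by G98A and those of TRIM74 and TRIM73 by C31A, each pair identical at 299 of 300 bases. The sources used here do not say how reads that fit several places were handled, and whether reads could be placed at these copies was not tested. Of the duplicates, TRIM52, a ligase with an extended RING, had 6.39 and 6.26 at a start it shares with TRIM52-AS1, and TRIM74 had 3.63 and 3.35 at its 3′ end. They were the 2 duplicates bound in both lists.

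Most strongest peaks lay within 1 kb of the gene's outer 5′ boundary, called its 5′ end here, which need not be a listed start. Among members with a known strand, the strongest peak was at the 5′ end in 31 of 38 in the control list and 33 of 39 in the siRNA list. No such share was computed over all genes. At TRIM34, TRIM10, TRIM16 and TRIM41, all among the 31, the control summit lay more than 1 kb from any listed start. The median distance from the summit to the nearest listed start was 348 bp in the control list and 164 bp in the siRNA list. Of the 62 members with a listed promoter, 36 had a control peak within 1 kb of a listed start (58.1%, against 62% of 15842 genes) and 39 a siRNA peak (62.9%, against 64.9%). The strongest peak lay within 1 kb of another protein-coding gene in 11 of 47 bound members (control list) and 10 of 46 (siRNA list). Some of these neighbours were members themselves, as with TRIM11 and TRIM17, and this share was not computed over all genes. At TRIM47, a ligase described in tumours, the strongest peak was at the 3′ end, with 3.39 and 2.83 over backgrounds of 56.3 and 66.5 reads. A weaker peak of 2.04 and 1.87 lay at the start of TRIM47, near the 3′ end of TRIM65.

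TRIM promoters were poorer in CpG than promoters at large, with a median of 10 CpG dinucleotides in 300 bases against 21 over 22198 promoters. The 34 TRIM promoters under a peak in both lists had a median of 20 CpG, the 3 under a siRNA peak alone had 11, and the 45 under no peak had 3. Over all promoters the medians were 27, 18 and 8. Among TRIM promoters with 0 to 4 CpG, 2 of 28 lay under a control peak (7.1%, against 7.2% of all such promoters) and 3 under a siRNA peak (10.7%, against 9.3%). With 5 to 14 CpG it was 10 of 22 (45.5%, against 26.4%) and 12 of 22 (54.5%, against 30.0%). With 15 or more it was 22 of 32 in each list (68.8%, against 67.1%). The promoter of TRIM6, in the class of 5 to 14 CpG, is listed again for TRIM6-TRIM34 with the same bases and peak. Starts of the same gene, as at TRIM2 and TRIM39, also count as separate promoters. The TRIM21 and TRIM5 promoters printed above, each with 6 CpG, and that of TRIM34, with 3, lay under peaks in both lists, whereas those of TRIM64 and TRIM64B, with 2, did not. Inside TRIM64, 2591 bp from a boundary, lay a control peak of 3.81.

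**Figure D4:**
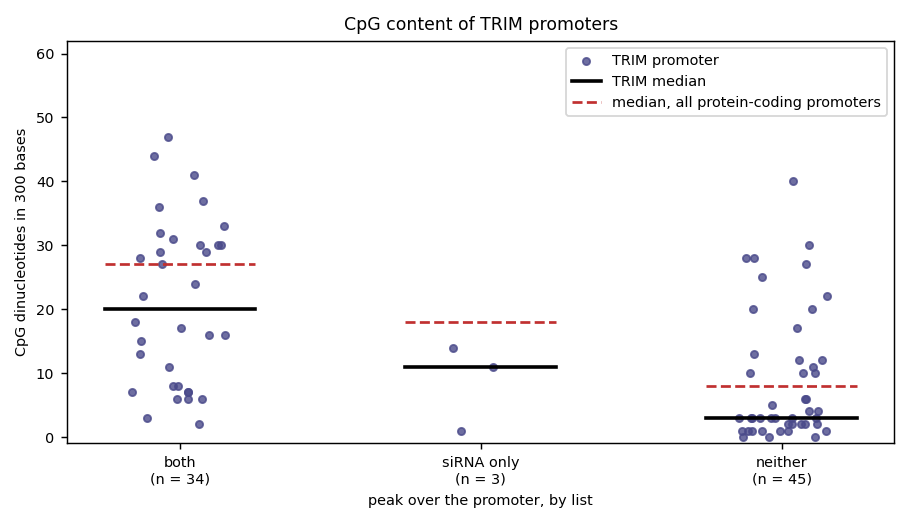
CpG dinucleotides in each listed 300-base TRIM promoter, by the list with a peak over it, with points spread sideways at random. Black lines are TRIM medians (20, 11 and 3) and dashed lines the medians of all protein-coding promoters (27, 18 and 8). Promoters under peaks hold more CpG than those under none, among TRIM genes and at large.

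The searched motifs were counted on both strands. No motif's letters contain those of another, though matches can overlap. The interferon-stimulated response element core occurred in 10 of 82 TRIM promoters (12.20%), against 3.17% of all promoters. The 10 belong to TRIM2, TRIM5, TRIM14, TRIM16, TRIM21, TRIM26, TRIM34, TRIM44, TRIM64C and TRIM69. Of these, 5 lay under a peak in both lists, namely those of TRIM5, TRIM21, TRIM26, TRIM34 and TRIM44. Among all TRIM promoters 41.5% lay under a peak in both lists, and among all promoters 43.8%. The core was in 14.71% of TRIM promoters under a peak in both lists and in 11.11% of those under none. The SP1 box GGGCGG was found in 42.68% of TRIM promoters, against 56.28%, and the ETS core CCGGAA in 13.41%, against 21.18%. TATAAA was found in 17.07%, against 9.47%. The NRF1 core occurred in the TRIM37 promoter alone among members (1.22%, against 1.5% of all promoters). These are matches of letters and not measured binding.

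Of 9 family members under other symbols, 5 were bound in the control list (55.6%, against 61.1% of all genes) and 6 in the siRNA list (66.7%, against 64.3%). PML, the organiser of nuclear bodies, had 6.5 and 5.98. RNF207, an ion channel regulator of heart, had 4.80 and 4.25, and MID2, a partner of microtubules, had 4.36 and 4.32. TRIML1, a testis-type member, had 5.54 and 5.64. MEFV, the pyrin gene of familial Mediterranean fever, had peaks of 2.68 in the control list and 3.4 in the siRNA list at different sites. BSPRY was bound in the siRNA list alone with 2.09, and MID1, CMYA5 and TRIML2 in neither list.

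Of 16 genes whose products work with TRIM ligases, 13 were bound in the control list (81.2%, 54.4 to 96.0%) and 11 in the siRNA list (68.8%, 41.3 to 89.0%), and these intervals hold the 61.1% and 64.3% of all genes. Among the ubiquitin-conjugating enzymes, UBE2W had 9.56 and 8.42, UBE2D3 had 9.60 and 8.14, and UBE2N, which builds K63-linked chains, had 8.02 and 7.32. The kinase MAP3K7, known as TAK1, had 14.4 and 12.9, and its adaptor TAB3 had 14.6 and 13.4. RIGI, the gene of the RNA sensor that TRIM25 acts with, was bound in the control list alone with 7.49, as was UBE2V1 with 4.43. MAVS, the adaptor downstream of RIG-I, had 3.97 and 4.51, and ZC3HAV1, a TRIM25 partner in viral RNA decay, had 5.74 and 5.77. TAB2, UBE2D2 and UBE2V2 were bound in neither list.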

How the data were processed

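CUT&Tag peaks of CHAF1A in RBE cells were taken from 2 deposited lists, 1 for each group of 2 samples. The submitters' processing notes name fastp 0.20.1, Bowtie2 2.2.5, MACS2 2.1.2, deepTools 3.4.3 and the build hg38. In the lists, as deposited by the authors, fold enrichment is a linear ratio and p and q are −log10 values, and the lowest −log10 p was 5.00 in each. The deposited score was not used. No source used here tells whether a control library was used or how the samples of a group were combined. The authors' fold enrichment and q served to describe and rank peaks.

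Peaks on other sequences (868 in the control list and 886 in the siRNA list) were left out. Genes came from RefSeq (GRCh38.p14). Pileup and background were solved from fold and p under a Poisson model, up to a −log10 p of 290, and the most frequent background was taken over a regular subset of the peaks. The window count and this solution were checked on simulated data. Fold ratios compare a gene's strongest control peak by −log10 q with the strongest siRNA peak overlapping it. No per-sample columns were left unused (0). Values are given for both clusters, for the 10 other members with the highest control −log10 q, for members bound in 1 list and for the 5 largest ratios each way. Others were added for the subfamily, partner and other-symbol lists. Members, lists and rules were chosen with earlier results of these data known. Values were computed with Python 3.11.15 (pandas 2.3.3, numpy 2.4.6, scipy 1.17.1) and drawn with matplotlib 3.10.9.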

Additional observations from a re-analysis of the deposited data

How the results depend on the processing

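The counts of bound genes and of overlapped peaks were recomputed with a −log10 q of at least 5 or 10, with equal numbers of peaks per list, with 3 kb windows, with 1 kb around listed starts only, without read-through genes and with 50% reciprocal overlap. Of these values and a recount below, 76 stayed within 1.5 times the main count and 6 did not. With equal numbers of peaks, 1 member, TRIM2, was bound in the siRNA list alone (1.3%, against 6.2% of all genes). With 3 kb windows the siRNA list alone bound 5 (6.6%, against 7.9%). There 81 of 100 control peaks (81.0%) and 77 of 113 siRNA peaks (68.1%) were overlapped, against 80.0% and 79.7% with 1 kb windows. The overlap shares with 3 kb windows were not computed over all genes. Around listed starts only, the control list alone bound 1 of 62 members, TRIM74, and 5 of 8 members of 6p21-p22 had a control peak. The cause was not tested. Leaving out members whose peak was overlapped in the other list gave 3 and 2 bound in 1 list, an alternative chosen after seeing the data. No paired analysis was possible because each group has 1 list whose columns carry no replicate number, and for the same reason no replicate could be left out. The number of reads is not given, so what depth limits is known only through the recovered backgrounds.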

Other observations

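Of 48 non-coding RefSeq genes named TRIM with a number, 5 were bound in the control list and 9 in the siRNA list. Pseudogenes made up 40 of them, with 2 bound in the control list (5.0%) and 3 in the siRNA list (7.5%), against 11.2% and 14.8% of all 16845 pseudogenes. Of 8 long non-coding RNA genes, 3 were bound in the control list (37.5%) and 6 in the siRNA list (75.0%), against 27.8% and 30.7% of all 18303 such genes. TRIM8-DT, which diverges from TRIM8, was bound at 4.65-fold (control) and 3.63-fold (siRNA), with a −log10 q of 53.8 and 38.8, while TRIM8 itself had no peak within 1 kb of a boundary. TRIM80P had 4.18 and 3.80. TRIM64DP had 4.74 in the siRNA list alone, at a peak that lies inside TRIM49. TRIM26BP had 3.69 in the siRNA list alone and TRIM16L had 3.34 in the control list alone.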
